A study of Mus musculus with 8 samples.

Results

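The ADAM and ADAMTS families are zinc metalloproteases that cut proteins at the cell surface and in the extracellular matrix. All mouse gene symbols made of Adam, Adamts or Adamtsl and a number were taken, which gave 57 genes (33 ADAM, 19 ADAMTS and 5 ADAMTSL) of the 23952 gene symbols in the data. A gene was counted as detected when it reached 1 RPKM (reads per kilobase of transcript, scaled to the reads of the library) in at least 1 library. By this rule 29 of the 57 genes were detected, made up of 11 ADAM, 14 ADAMTS and 4 ADAMTSL genes.

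RNA came from Lewis lung carcinomas, tumors of a mouse lung carcinoma cell line grown under the skin of mice, and was sequenced in 4 groups of 2 libraries each. All hosts were transgenic Col1a1-GFP mice, in which green fluorescent protein (GFP) marks cells that use the Col1a1 collagen promoter. All injected tumor cells carried dTomato, a red fluorescent protein, from a transfected vector; they had been sorted for it and then kept in G418, an antibiotic that selects for the vector. Labelled collagen was put into the tumors 24 h before the cells were taken. The TAM group, labelled as M2 tumor-associated macrophages, held cells without dTomato or GFP that were positive for F4/80 (a macrophage surface protein) and for the labelled collagen. The Fibroblast group held GFP-positive cells, the LLC group dTomato-positive tumor cells, and the Total tumor group RNA of whole tumors. The labels give no strain or age of the mice, and do not state if both libraries of a group stem from the same tumor or mouse, so every p-value measures only the spread between these libraries, which may be technical.

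ADAM proteins are mostly anchored in the membrane, where the active ones release growth factors, cytokines and adhesion molecules from the cell surface, a process called shedding. ADAMTS proteins are secreted and bind the matrix, where they mature procollagens and cut proteoglycans such as versican and aggrecan. ADAMTSL proteins share the binding domains of ADAMTS but have no protease domain. In tumors these enzymes are known from both macrophages and stromal fibroblasts.

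The catalytic part of these enzymes is marked by a short zinc-binding stretch, His-Glu-x-x-His-x-x-Gly/Asn-x-x-His, and its codons are shown for the members the results turn on. The 33 bases that encode it are given 5′ to 3′ as they stand in mouse transcripts of GENCODE M21 (build GRCm38), with the codons of the fixed amino acids in capitals. The first set holds the membrane proteases, with a glycine codon in the fourth block of capitals.
Adam8: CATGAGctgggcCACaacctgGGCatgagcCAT
Adam15: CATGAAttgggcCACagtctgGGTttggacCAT
Adam9: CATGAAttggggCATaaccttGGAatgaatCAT
Adam10: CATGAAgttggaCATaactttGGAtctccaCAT
Adam17: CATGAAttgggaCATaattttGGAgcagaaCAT
Adam12: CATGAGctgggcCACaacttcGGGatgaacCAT
Adam19: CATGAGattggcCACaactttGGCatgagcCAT
The second set holds ADAMTS members of the collagen-maturing and proteoglycan-cutting groups, which also carry the glycine codon.
Adamts2: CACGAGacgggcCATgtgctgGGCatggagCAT
Adamts14: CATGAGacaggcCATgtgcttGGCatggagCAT
Adamts5: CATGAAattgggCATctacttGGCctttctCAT
The third set carries an asparagine codon at that place.
Adamts1: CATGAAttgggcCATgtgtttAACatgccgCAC
Adamts15: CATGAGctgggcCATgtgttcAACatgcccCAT
Adamts4: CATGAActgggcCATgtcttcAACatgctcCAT
Adamts9: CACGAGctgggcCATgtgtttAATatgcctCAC

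Adamts2 and Adamts14 shared 30 of the 33 bases and Adam8 and Adam12 shared 29, as many as Adam19 and Adamts6, which are of different families. For Adam17 and Adamts9 the stretch was found in a coding transcript other than the one whose RPKM is used here. Of the 57 genes, 33 had a stretch with glycine, 5 had one with asparagine and 19 had no match in their annotated coding transcripts. The 19 hold Adamts8, which is counted below among the hyalectanases, so a missing match does not by itself mark a gene that encodes no protease. The genes with asparagine made up 0.266 and 0.597% of the summed RPKM of all members in the TAM libraries, against 25.1 and 19.1% in Fibroblast, 27.4 and 26.6% in LLC, and 15.8 and 7.06% in Total tumor. The members with glycine made up 97.7 and 96.5% in TAM, 57.9 and 60.9% in Fibroblast, 60.9 and 61.1% in LLC, and 74.1 and 85.1% in Total tumor. The class of enzyme with asparagine, which is that of Adamts1, Adamts4, Adamts9 and Adamts15 among the detected genes, was thus a small part of the TAM sum in both libraries. Single genes weigh heavily in these shares. Adamts1 held 83.6 of 91.4 and 94.6 of 107 RPKM of the class in LLC, and 129 of 215 and 82.9 of 173 in Fibroblast. Adam8 held 473 of 836 and 393 of 811 RPKM of the sum of all members in TAM.

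The estimated depth lay between 4.28 and 10.37 M reads per library, at which 1 read on a transcript of 4 kb is worth between 0.0241 and 0.0584 RPKM. The labels were set against markers. All 12 macrophage markers were higher in TAM than in Fibroblast and in LLC, and all 12 fibroblast markers were higher in Fibroblast than in TAM. Against LLC, 9 of the 12 fibroblast markers were called higher in Fibroblast. The lists hold Emr1, which encodes the surface protein used to sort TAM, and Col1a1, whose promoter drives the GFP. Emr1 and Col1a1 are thus not independent of the sort. No marker of either list was at 0 in any library. In TAM 1 and TAM 2 the fibroblast markers stood at a median of 0.583 and 2.68% of their Fibroblast mean, and in Fibroblast 1 and Fibroblast 2 the macrophage markers stood at 1.18 and 1.60% of their TAM mean. In LLC 1 and LLC 2 the fibroblast markers ranged from 0.691 to 67.6% and from 3.12 to 65.8% of the Fibroblast mean, so some of them stood high in the LLC libraries. The part of fibroblast RNA in the LLC values was not tested. The 8 markers of pericytes and smooth muscle summed to 5.61 and 8.11 RPKM in TAM, 312 and 173 in Fibroblast, and 7.07 and 11.7 in LLC. The part of such cells in the Fibroblast values was not tested. The neutrophil markers summed to 69.2 and 60.6 RPKM in TAM, 5.79 and 2.91 in Fibroblast, 1.82 and 5.34 in LLC, and 133 and 597 in Total tumor.

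TAM held its protease transcripts almost wholly in the ADAM family, and Fibroblast held most of them in the ADAMTS family. The 33 ADAM genes summed to 789 ± 28.9 RPKM in TAM, 288 ± 29.9 in Fibroblast, 179 ± 27.8 in LLC and 253 ± 28.9 in Total tumor (SD, n = 2 each, as for every mean here). The 19 ADAMTS genes summed to 17.0 ± 7.48 RPKM in TAM, 482 ± 9.69 in Fibroblast, 147 ± 13.6 in LLC and 88.8 ± 30.4 in Total tumor. For the 5 ADAMTSL genes the sums were 17.5 ± 4.02 RPKM in TAM, 111 ± 15.6 in Fibroblast, 42.4 ± 7.0 in LLC and 30.4 ± 5.58 in Total tumor. The total over all 57 was alike in TAM (823 ± 17.4 RPKM) and Fibroblast (882 ± 35.8 RPKM), and lower in LLC (368 ± 48.4) and Total tumor (372 ± 7.10). Sums of this kind weigh each member by its level, so a few genes set them. They were not rescaled, and the RPKM of all named transcripts summed to 619111 and 565469 in TAM but to 476968 and 463686 in Fibroblast.

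The level of a gene in a sorted library is relative to all RNA of that library, and fewer cells of a type and less RNA per cell cannot be told apart. Of the 29 detected genes, 22 had their highest mean among the sorted populations in Fibroblast, 5 in LLC and 2 in TAM. The 2 in TAM were Adam8 and Adam15, and the 5 in LLC were Adam10, Adam17, Adamts6, Adamts14 and Adamtsl3. A gene could be detected through its high group alone, and no such share was computed over all genes. Some places rest on close means whose difference was not called in the tests below. These were Adam9 (80.8 RPKM in Fibroblast, 78.8 in TAM), Adam10 (42.8 in LLC, 40.0 in TAM) and Adam17 (40.3 in LLC, 38.3 in TAM). Adamts14 (21.6 in LLC, 20.1 in Fibroblast) and Adamts1 (106 in Fibroblast, 89.1 in LLC) were others.

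**Figure D1:**
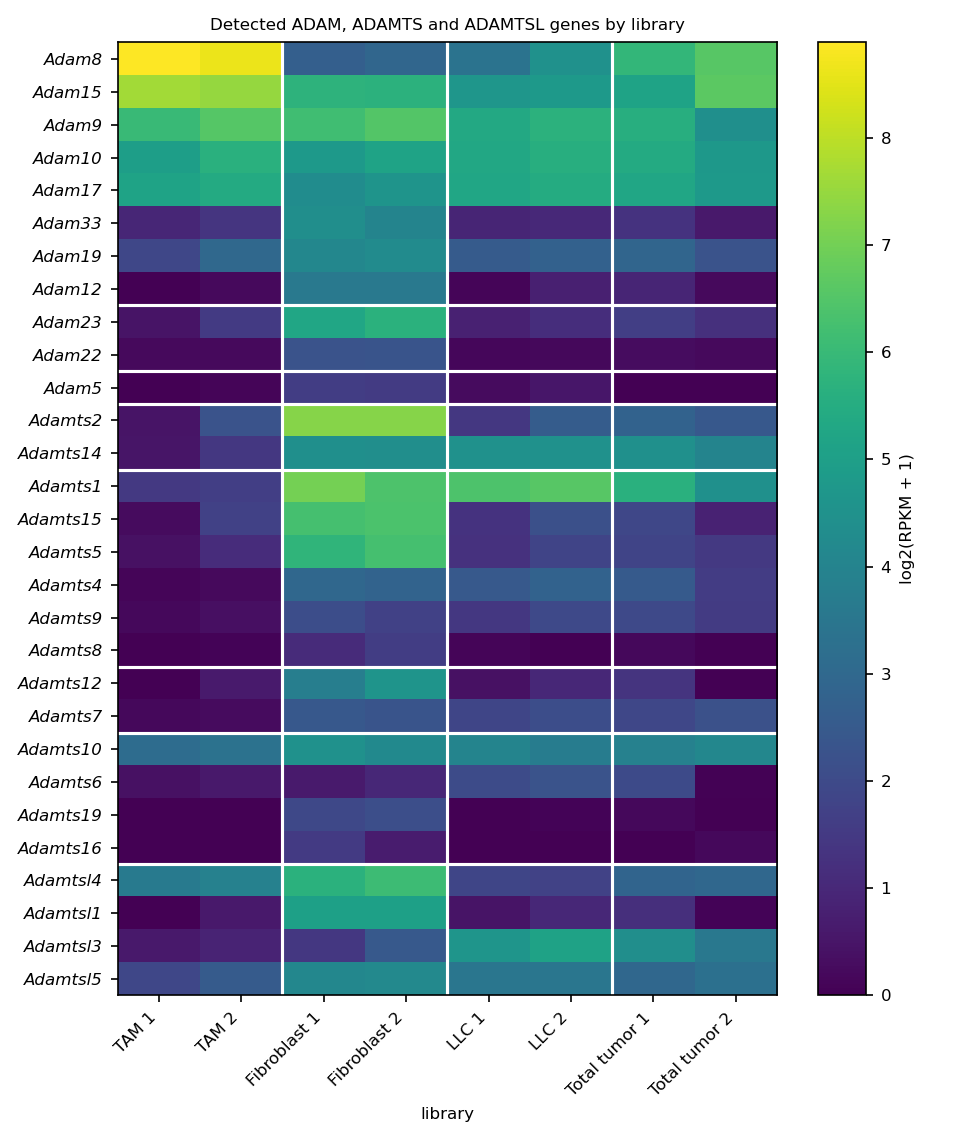
Log2(RPKM + 1) of the 29 detected ADAM, ADAMTS and ADAMTSL genes (rows) in the 8 libraries (columns, ordered TAM, Fibroblast, LLC, Total tumor), with lighter, more yellow cells for higher levels. Most ADAMTS rows are lighter in Fibroblast than in TAM, while Adam8 and Adam15 are lightest in TAM.

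Tests used limma on log2(RPKM + 1) over the 13311 genes with at least 1 RPKM in at least 2 libraries, and a difference was called at an adjusted p under 0.05. Of the 57 members, 28 entered the test: all 29 detected ones except Adamts16, which reached 1 RPKM in a single library. A gene could enter through its high group alone, so the counts describe the 28 tested genes and not the family. Between TAM and Fibroblast 3 of the 28 were called higher (Adam8, Adam15 and Adam17) and 21 lower, where 17.4% of all genes were called higher and 17.3% lower. The median log2 difference of the 28 was −2.04, against 0.13 over all genes. Between TAM and LLC 3 were called higher and 8 lower, where 15.4 and 27.5% of all genes were, so the share called lower was near that of all genes. The median was −0.34, against −0.38 over all genes. Between Fibroblast and LLC 14 were called higher and 2 lower, where 13.0 and 25.7% of all genes were, and the median was 1.09 against −0.46. Adam8 and Adam15 were called higher in TAM than in both other sorted populations, 2 of 28 members, where 11.4% of all genes were. For Fibroblast 14 of 28 members met this rule, where 9.0% of all genes did, and for LLC Adamtsl3 alone did, where 15.8% of all genes did. The comparisons share libraries and are not independent of each other.

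Adam8, a shedding protease known from leukocytes, was the member with the highest level of all and was concentrated in TAM. It stood at 473 and 393 RPKM in TAM, 5.52 and 6.58 in Fibroblast, 9.35 and 21.4 in LLC, and 58.3 and 94.2 in Total tumor. The TAM libraries were far above all others, and both Total tumor libraries were above Fibroblast and LLC. The log2 difference was 5.94 between TAM and Fibroblast (SE 0.40, adjusted p = 0.000104) and 4.83 between TAM and LLC (SE 0.40, adjusted p = 0.000152). The difference of −1.12 (SE 0.40) between Fibroblast and LLC was not called (adjusted p = 0.0589), but it was in 3 of 18 alternatives. Adam8 made up 58.5 and 51.2% of the ADAM sum in TAM, 2.07 and 2.13% in Fibroblast, 5.88 and 10.8% in LLC, and 25.1 and 34.5% in Total tumor.

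Adam15, a membrane protease with an integrin-binding domain, was the second member with its highest level in TAM. It stood at 199.6 and 179 RPKM in TAM, 53.2 and 51.5 in Fibroblast, 24.7 and 26.4 in LLC, and 34.7 and 99.5 in Total tumor. TAM was above every other library, and the order of the sorted groups was TAM, Fibroblast, LLC without overlap. Its log2 difference was 2.84 between TAM and LLC (SE 0.44, adjusted p = 0.00163) and 1.83 between TAM and Fibroblast (SE 0.44, adjusted p = 0.0129). The call between TAM and Fibroblast ended when TAM 1, TAM 2, Fibroblast 1 or Fibroblast 2 was left out (adjusted p = 0.0779, 0.0558, 0.0769 and 0.0844), and its adjusted p ranged from 0.00018 to 0.0844 over all alternatives. The log2 difference of 1.01 (SE 0.44) between Fibroblast and LLC was not called (adjusted p = 0.105), but it was in 6 of 18 alternatives, with adjusted p down to 0.00247. In the annotation, 24.7% of the exonic bases of Adam15 lie opposite exons of 4731419I09Rik on the other strand. The strand setting of the counting is not given, so reads of the pair cannot be told apart.

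Adam9, Adam10 and Adam17, which shed many surface proteins and are made by most cell types, were present in every library at 19.2 RPKM or more. Adam17, the main sheddase of Tnf, stood at 34.5 and 42.1 RPKM in TAM, 19.2 and 23.5 in Fibroblast, 37.8 and 42.9 in LLC, and 37.3 and 26.1 in Total tumor. Both Fibroblast libraries were below all others. On the log2 scale it differed by 0.81 between TAM and Fibroblast (SE 0.26, adjusted p = 0.0431) and −0.89 between Fibroblast and LLC (SE 0.26, adjusted p = 0.0291). Both calls were fragile. That between TAM and Fibroblast was lost in 11 of 18 alternatives, with adjusted p between 0.0124 and 0.297, and that between Fibroblast and LLC in 8 of 18, between 0.00817 and 0.368. Between TAM and LLC the difference was −0.08 and was not called (adjusted p = 0.84). The transcript kept for Adam17 carries the non-coding identifier NR_102380. Its exons lie opposite those of Iah1 over 6.90% of their bases.

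Adam10, the sheddase of Notch receptors and many adhesion molecules, stood at 30.6 and 49.3 RPKM in TAM, 26.8 and 34.5 in Fibroblast, 39.4 and 46.2 in LLC, and 42.1 and 25.9 in Total tumor. No difference between sorted populations was called. The difference in log2 was 0.35 between TAM and Fibroblast (SE 0.33, adjusted p = 0.477), −0.13 between TAM and LLC (adjusted p = 0.781) and −0.48 between Fibroblast and LLC (adjusted p = 0.285). Adam9, a membrane protease with broad substrates, stood at 64.7 and 92.9 RPKM in TAM, 70.8 and 90.7 in Fibroblast, 39.8 and 51.6 in LLC, and 46.8 and 20.4 in Total tumor. Its TAM and Fibroblast libraries overlapped, with a log2 difference of −0.05 (SE 0.40, adjusted p = 0.946). Both were above LLC in every library, but neither the difference of 0.76 from TAM (adjusted p = 0.166) nor that of 0.81 from Fibroblast (adjusted p = 0.148) was called. They were called in 3 and 4 of 18 alternatives.

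The other detected ADAM proteases with a zinc site had their highest level in Fibroblast. Adam12, a protease known from mesenchymal cells, stood at 0 and 0.175 RPKM in TAM, 11 and 11.1 in Fibroblast, 0.075 and 0.73 in LLC, and 0.90 and 0.166 in Total tumor. In the limma fit the log2 difference was −3.47 between TAM and Fibroblast (SE 0.35, adjusted p = 0.000212) and 3.14 between Fibroblast and LLC (SE 0.35, adjusted p = 0.000649). Adam33, named in human studies of airway mesenchyme, stood at 0.927 and 1.56 RPKM in TAM, 20.01 and 15.0 in Fibroblast, 0.886 and 1.04 in LLC, and 1.46 and 0.538 in Total tumor. The log2 difference was −3.04 between TAM and Fibroblast (SE 0.33, adjusted p = 0.000303) and 3.23 between Fibroblast and LLC (SE 0.33, adjusted p = 0.000529). For both genes the Fibroblast libraries were above every other library.

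Adam19, which sheds neuregulins, was less restricted. It stood at 2.73 and 7.11 RPKM in TAM, 16.2 and 18.5 in Fibroblast, 4.84 and 5.70 in LLC, and 6.46 and 3.85 in Total tumor. Its log2 difference was −1.74 between TAM and Fibroblast (SE 0.41, adjusted p = 0.0121) and 1.55 between Fibroblast and LLC (SE 0.41, adjusted p = 0.0205). The first call was lost without TAM 1, Fibroblast 1 or Fibroblast 2 (adjusted p = 0.0727, 0.0683 and 0.0944), and the second without Fibroblast 1, Fibroblast 2, LLC 1 or LLC 2 (0.0946, 0.126, 0.112 and 0.0719). TAM and LLC differed by −0.19 on the log2 scale, which was not called (adjusted p = 0.746). The exons of Adam19 lie opposite those of Gm16033 over 9.20% and of Gm16034 over 7.52% of their bases.

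**Figure D2:**
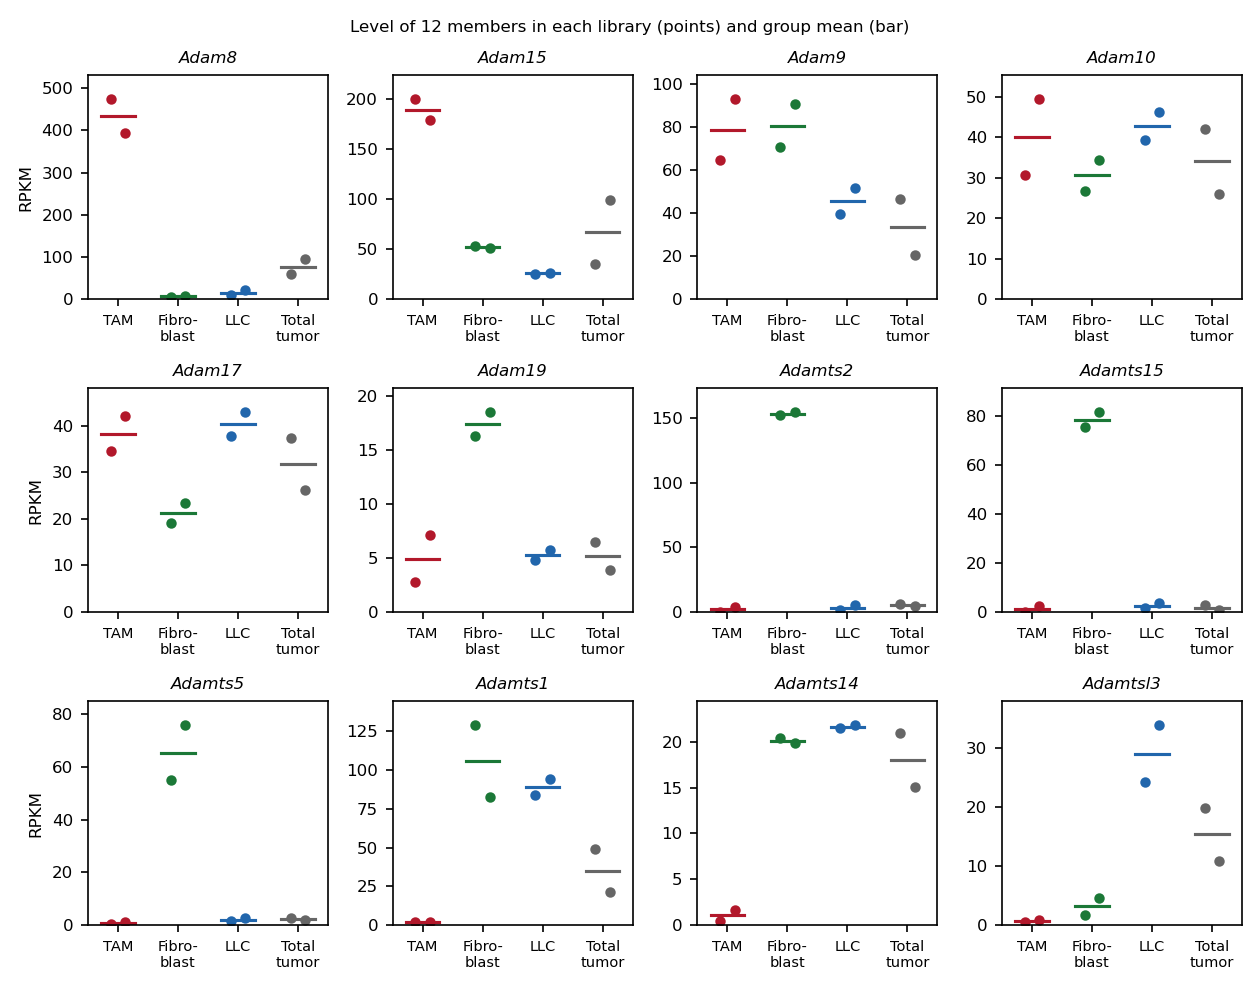
RPKM of 12 members in each library (points; each panel has its own linear axis from 0), with the groups from left to right TAM, Fibroblast, LLC and Total tumor and the group mean as a bar. Adam8 and Adam15 are highest in TAM, Adam9, Adam10 and Adam17 are well above 0 in all groups, and Adamts2, Adamts5 and Adamts15 stand far higher in Fibroblast than elsewhere.

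Adam22 and Adam23 encode membrane proteins that have lost the active zinc site and act as adhesion and receptor partners, best known in the nervous system. Adam23 stood at 0.368 and 1.88 RPKM in TAM, 37.0 and 50.1 in Fibroblast, 0.774 and 1.22 in LLC, and 2.17 and 1.33 in Total tumor. It made up 13.9 and 16.2% of the ADAM sum in Fibroblast. Its other transcript stood lower there, at 24.3 and 32.8 RPKM, so the level and the share depend on the transcript kept. On the log2 scale Adam23 differed by −4.47 between TAM and Fibroblast (SE 0.41, adjusted p = 0.000166) and 4.47 between Fibroblast and LLC (SE 0.41, adjusted p = 0.00037). Adam22 stood at 0.168 and 0.173 RPKM in TAM, 3.80 and 3.96 in Fibroblast, 0.117 and 0.129 in LLC, and 0.221 and 0.164 in Total tumor. It was lower in TAM than in Fibroblast (log2 difference −2.06, SE 0.22, adjusted p = 0.000266) and higher in Fibroblast than in LLC (2.12, SE 0.22, adjusted p = 0.000528). Adam5, a gene known from the mouse testis, stood at 0 and 0.087 RPKM in TAM, 2.03 and 1.90 in Fibroblast, 0.188 and 0.455 in LLC, and 0 in both Total tumor libraries. Its level was lower in TAM than in Fibroblast (−1.51, adjusted p = 0.00137) and higher in Fibroblast than in LLC (1.17, adjusted p = 0.00615), a call that was lost without LLC 1 (adjusted p = 0.0552).

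The procollagen N-propeptidases cut the amino-terminal propeptide from fibrillar procollagens, the step before collagen molecules assemble into fibrils. Together they summed to 3.19 ± 3.36 RPKM in TAM, 174 ± 0.809 in Fibroblast, 25.1 ± 2.66 in LLC and 23.2 ± 5.17 in Total tumor. Adamts2 carried the Fibroblast level, with 0.386 and 3.88 RPKM in TAM, 152 and 154 in Fibroblast, 1.70 and 5.04 in LLC, and 5.90 and 4.47 in Total tumor. It made up 31.2 and 32.4% of the ADAMTS sum in Fibroblast. The difference in log2 was −5.89 between TAM and Fibroblast (SE 0.60, adjusted p = 0.00023) and 5.26 between Fibroblast and LLC (SE 0.60, adjusted p = 0.000745).

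Adamts14, with nearly the same zinc-site codons as Adamts2, had another distribution. It stood at 0.429 and 1.68 RPKM in TAM, 20.4 and 19.9 in Fibroblast, 21.5 and 21.8 in LLC, and 21.0 and 15.1 in Total tumor. TAM was below all other libraries, with a log2 difference of −3.43 from Fibroblast (SE 0.34, adjusted p = 0.000202) and −3.53 from LLC (SE 0.34, adjusted p = 0.000234). The difference of −0.10 (SE 0.34) between Fibroblast and LLC was not called (adjusted p = 0.84). Thus the LLC libraries held Adamts14 at the Fibroblast level but Adamts2 at a small share of it. Adamts3, the remaining N-propeptidase, did not reach 1 RPKM in any library.

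The hyalectanases cut versican, aggrecan and related proteoglycans, and their sum was 4.33 ± 2.53 RPKM in TAM, 261 ± 14.3 in Fibroblast, 101 ± 11.7 in LLC and 44.9 ± 24.4 in Total tumor. Adamts1 was shared by Fibroblast and LLC. It stood at 1.79 and 2.10 RPKM in TAM, 129 and 82.9 in Fibroblast, 83.6 and 94.6 in LLC, and 49.0 and 21.2 in Total tumor. In the limma fit the log2 difference was −5.15 between TAM and Fibroblast (SE 0.40, adjusted p = 0.000118) and −4.93 between TAM and LLC (SE 0.40, adjusted p = 0.000146). Fibroblast and LLC overlapped and differed by 0.22 (SE 0.40, adjusted p = 0.699). In LLC it made up 60.9 and 60.4% of the ADAMTS sum. Fibroblast 1, the higher of its pair for Adamts1, also had the higher sum of pericyte and smooth muscle markers, at 312 RPKM, with 173 in Fibroblast 2, and their part in the result was not tested.

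Adamts15 and Adamts5 were high in Fibroblast alone among the sorted populations. Adamts15 stood at 0.197 and 2.26 RPKM in TAM, 75.4 and 81.4 in Fibroblast, 1.49 and 3.5 in LLC, and 2.73 and 0.786 in Total tumor. The log2 difference was −5.33 between TAM and Fibroblast (SE 0.56, adjusted p = 0.000262) and 4.57 between Fibroblast and LLC (SE 0.56, adjusted p = 0.000981). Adamts5, a major aggrecanase of mouse cartilage, stood at 0.317 and 1.21 RPKM in TAM, 55.2 and 75.8 in Fibroblast, 1.39 and 2.50 in LLC, and 2.54 and 1.78 in Total tumor. Its log2 difference was −5.27 between TAM and Fibroblast (SE 0.37, adjusted p = 0.00011) and 4.51 between Fibroblast and LLC (SE 0.37, adjusted p = 0.000344). Adamts5 and Adamts1 are neighbouring protein-coding genes in the annotation, yet LLC held Adamts1 at Fibroblast levels and Adamts5 far below them. Both LLC libraries were above both TAM libraries for Adamts5, a difference that limma did not call (adjusted p = 0.136).

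Adamts4 and Adamts9 were, like Adamts1, lower in TAM than in both Fibroblast and LLC, at lower levels. Adamts4, the other classical aggrecanase, stood at 0.095 and 0.183 RPKM in TAM, 6.92 and 6.15 in Fibroblast, 4.54 and 5.91 in LLC, and 4.77 and 2.02 in Total tumor. By limma it was lower in TAM than in Fibroblast (log2 difference −2.72, SE 0.35, adjusted p = 0.000664) and than in LLC (−2.44, SE 0.35, adjusted p = 0.00123). Fibroblast and LLC differed by 0.28, which was not called (adjusted p = 0.559). Adamts9, a large member that acts in the matrix and the secretory pathway, stood at 0.136 and 0.297 RPKM in TAM, 3.29 and 2.31 in Fibroblast, 1.70 and 2.87 in LLC, and 2.92 and 1.90 in Total tumor. It was lower in TAM than in Fibroblast (−1.64, SE 0.31, adjusted p = 0.00456) and than in LLC (−1.41, SE 0.31, adjusted p = 0.0086). The call against LLC was lost without TAM 1 or LLC 2 (adjusted p = 0.0584 and 0.065) and after a length correction (0.0607). Adamts8 stood at 0 and 0.062 RPKM in TAM, 1.11 and 2.03 in Fibroblast, 0.08 and 0 in LLC, and 0.138 and 0 in Total tumor, and was called lower in TAM than in Fibroblast (−1.30, adjusted p = 0.00516) and higher in Fibroblast than in LLC (1.28, adjusted p = 0.00666). Its exons lie opposite those of Gm29724 over 13.5% of their bases. Adamts20, the remaining hyalectanase, was not detected.

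Adamts7 and Adamts12 cut cartilage oligomeric matrix protein (COMP) and differed from each other in LLC. Adamts12 stood at 0.019 and 0.574 RPKM in TAM, 13.0 and 23.3 in Fibroblast, 0.325 and 0.974 in LLC, and 1.51 and 0 in Total tumor. On the log2 scale it differed by −3.86 between TAM and Fibroblast (SE 0.51, adjusted p = 0.000725) and 3.51 between Fibroblast and LLC (SE 0.51, adjusted p = 0.00189). Adamts7 stood at 0.153 and 0.209 RPKM in TAM, 4.49 and 3.92 in Fibroblast, 2.65 and 3.32 in LLC, and 2.68 and 3.62 in Total tumor. Its level was lower in TAM than in Fibroblast (−2.14, SE 0.27, adjusted p = 0.000536) and than in LLC (−1.75, SE 0.27, adjusted p = 0.00153), while Fibroblast and LLC differed by 0.39, which was not called (adjusted p = 0.28).

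Adamts10, which binds fibrillin microfibrils, was the ADAMTS gene with the highest level in TAM. It stood at 7.79 and 9.27 RPKM in TAM, 21.4 and 17.6 in Fibroblast, 15.1 and 12.2 in LLC, and 13.9 and 16.3 in Total tumor, and made up 66.8 and 41.7% of the ADAMTS sum in TAM. By limma it was lower in TAM than in Fibroblast (log2 difference −1.10, SE 0.24, adjusted p = 0.00928), a call that was lost without TAM 1 or Fibroblast 1 (adjusted p = 0.0684 and 0.0858). Against LLC the difference of −0.62 was not called (adjusted p = 0.0776), but it was without Total tumor 1 or Total tumor 2. Adamts6, its closest relative, stood at 0.316 and 0.511 RPKM in TAM, 0.561 and 0.965 in Fibroblast, 3.06 and 3.83 in LLC, and 2.98 and 0.044 in Total tumor. Among the sorted libraries both LLC libraries were the highest, and the log2 difference between TAM and LLC was −1.65 (SE 0.56, adjusted p = 0.0454). That call was lost in 12 of 17 alternatives, with adjusted p between 0.00142 and 0.172. Neither its difference of −0.31 between TAM and Fibroblast (adjusted p = 0.715) nor that of −1.34 between Fibroblast and LLC (adjusted p = 0.094) was called, though the second was in 4 of 17 alternatives. Adamts19 was at 0 in both TAM libraries and stood at 2.81 and 3.35 RPKM in Fibroblast, 0.021 and 0.05 in LLC, and 0.15 and 0 in Total tumor. It was lower in TAM than in Fibroblast (−2.03, adjusted p = 0.000314) and higher in Fibroblast than in LLC (1.98, adjusted p = 0.00071). Adamts16, not tested, was at 0 in both TAM libraries and stood at 1.88 and 0.595 RPKM in Fibroblast, 0.019 and 0 in LLC, and 0 and 0.128 in Total tumor.

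**Figure D3:**
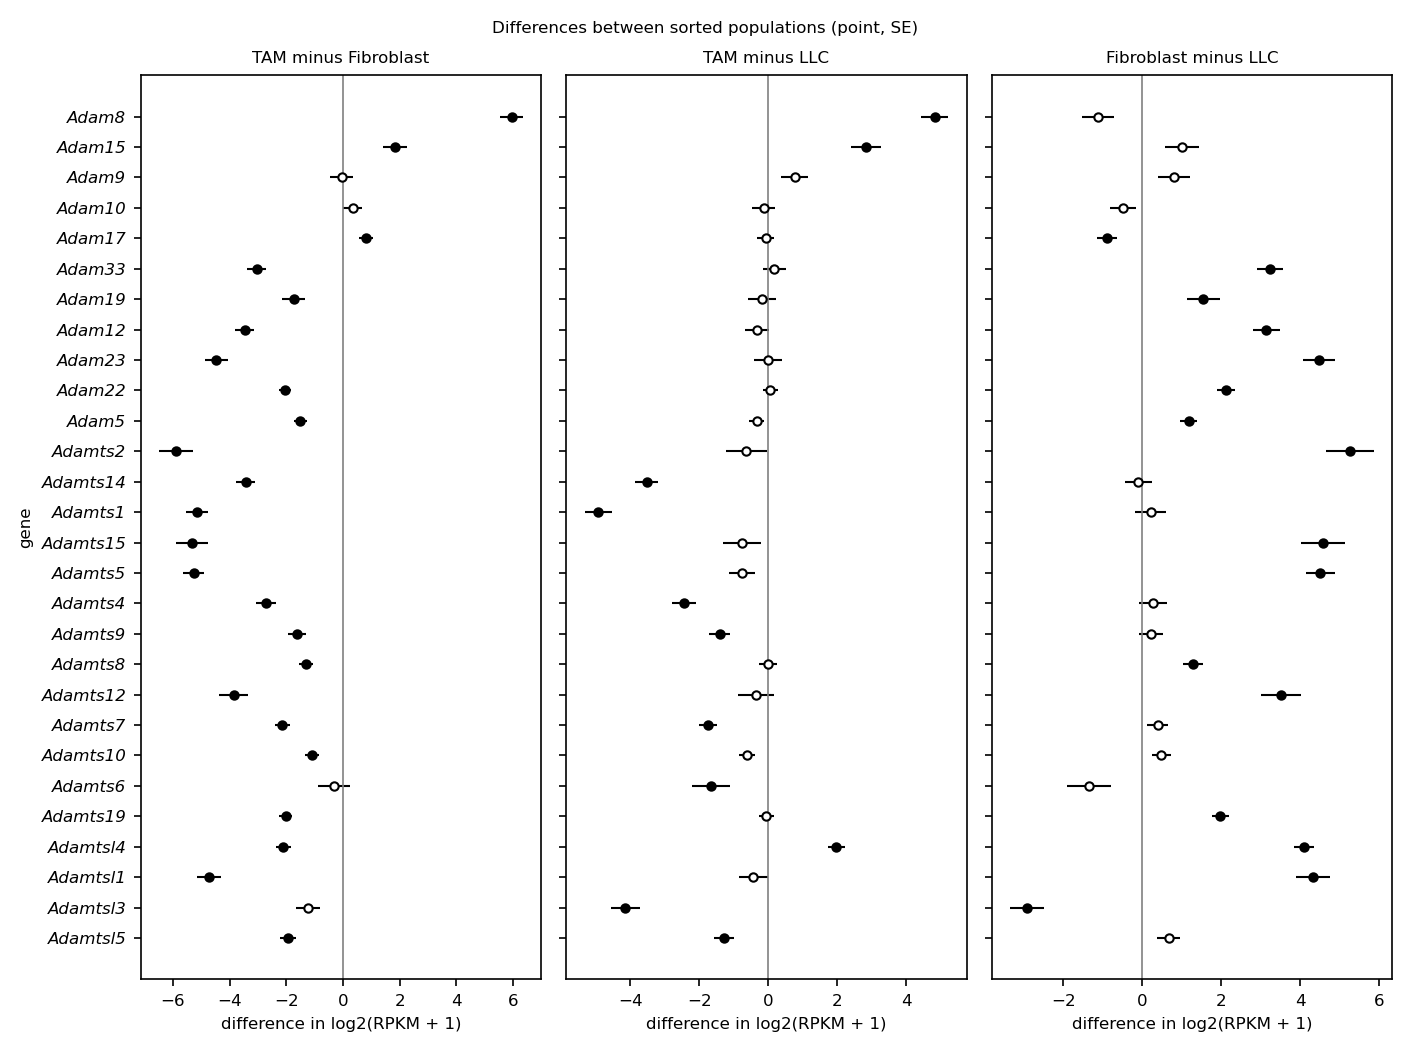
Log2 difference on the log2(RPKM + 1) scale for each of the 28 tested members in the comparisons TAM minus Fibroblast, TAM minus LLC and Fibroblast minus LLC, with bars for the standard error, filled points for called differences and open points for those not called. In TAM minus Fibroblast 21 filled points lie below 0 and 3 above it, and in Fibroblast minus LLC 14 lie above 0 and 2 below it.

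The ADAMTS-like genes, whose products bind matrix without cutting it, split over the populations. Adamtsl1 stood at 0 and 0.514 RPKM in TAM, 32.0 and 31.9 in Fibroblast, 0.381 and 0.983 in LLC, and 1.29 and 0.054 in Total tumor. The difference in log2 was −4.74 between TAM and Fibroblast (SE 0.43, adjusted p = 0.000161) and 4.32 between Fibroblast and LLC (SE 0.43, adjusted p = 0.000472). Adamtsl4, which binds fibrillin-1 and is named in human lens dislocation, stood at 11.5 and 14.2 RPKM in TAM, 49.9 and 68.0 in Fibroblast, 2.63 and 2.36 in LLC, and 6.29 and 6.78 in Total tumor. Its order was Fibroblast, TAM, LLC without overlap, with a log2 difference of −2.11 between TAM and Fibroblast (SE 0.25, adjusted p = 0.000476) and 1.98 between TAM and LLC (SE 0.25, adjusted p = 0.000706). Between Fibroblast and LLC it was 4.08 (SE 0.25, adjusted p = 0.000272). Adamtsl4 was the third member called higher in TAM than in LLC, beside Adam8 and Adam15, and made up 78.0 and 69.6% of the ADAMTSL sum in TAM.

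Adamtsl3 was the only member called higher in LLC than in both other sorted populations. It stood at 0.53 and 0.83 RPKM in TAM, 1.75 and 4.61 in Fibroblast, 24.1 and 33.8 in LLC, and 19.8 and 10.9 in Total tumor. Both LLC libraries were the highest, and it made up 64.5 and 71.3% of their ADAMTSL sum. In the limma fit the log2 difference was −4.14 between TAM and LLC (SE 0.43, adjusted p = 0.000298) and −2.91 between Fibroblast and LLC (SE 0.43, adjusted p = 0.00203). Between TAM and Fibroblast the difference of −1.23 (SE 0.43) was not called (adjusted p = 0.0615), but it was in 6 of 18 alternatives. Adamtsl5 stood at 2.70 and 4.84 RPKM in TAM, 16.5 and 17.4 in Fibroblast, 10.3 and 10.2 in LLC, and 6.92 and 8.77 in Total tumor. Its level was lower in TAM than in Fibroblast (log2 difference −1.95, SE 0.29, adjusted p = 0.00133) and than in LLC (−1.28, SE 0.29, adjusted p = 0.00983). The call against LLC was lost without TAM 1, LLC 1 or LLC 2 (adjusted p = 0.0655, 0.0587 and 0.0546) and after quantile normalization (0.0509). Adamtsl2 was not detected.

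Several members with high Fibroblast levels had low but non-zero values in TAM, and these can be set beside the fibroblast markers. The 12 markers stood at 0.315 to 1.32% of their Fibroblast mean in TAM 1 and at 1.52 to 3.46% in TAM 2. Adamts2 stood at 0.252 and 2.53% of its Fibroblast mean in the same libraries, Adamts15 at 0.251 and 2.88%, Adamts5 at 0.484 and 1.85%, and Adamts12 at 0.105 and 3.16%. Adam12 and Adamtsl1 were at 0 in TAM 1, and at 1.59 and 1.61% in TAM 2. For all 6 genes the level in TAM 2 was within the range of the markers. Adamts1 and Adamts4 stood above all markers in TAM 1 (1.69 and 1.45%) and among them in TAM 2 (1.99 and 2.80%). Adam23 stood among the markers in TAM 1 (0.845%) and above them in TAM 2 (4.31%). Shares above all markers in both libraries were those of Adamts7 (3.64 and 4.97%), Adam22 (4.33 and 4.46%), Adam33 (5.30 and 8.92%), Adamtsl5 (15.9 and 28.6%), Adam19 (15.7 and 41.0%), Adamtsl4 (19.4 and 24.1%), Adamts10 (39.9 and 47.5%) and Adam9 (80.1 and 115%). The places of Adamts4 (0.095 RPKM in TAM 1) and Adamts7 (0.153 and 0.209 RPKM in TAM 1 and TAM 2) rest on few reads. One read on 4 kb is worth 0.0293 RPKM in TAM 1 and 0.0561 in TAM 2. The part of fibroblast RNA in the TAM values was not tested. In the other direction, Adam8 stood at 1.27 and 1.52% of its TAM mean in Fibroblast, where the macrophage markers ranged from 0.756 to 2.16% and from 1.14 to 2.52%. In LLC 1 and LLC 2 it stood at 2.16 and 4.94%, above the markers' ranges of 0.259 to 1.86% and 1.26 to 4.47%.

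**Figure D4:**
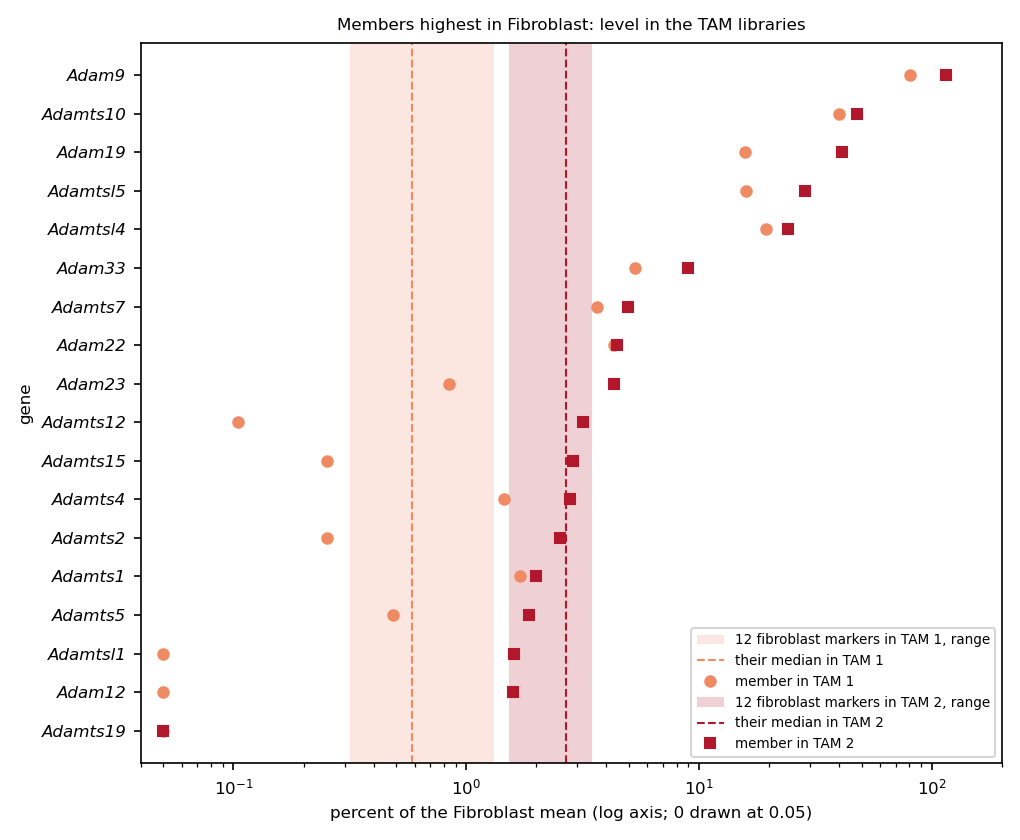
Level in TAM 1 and TAM 2 as a percentage of the Fibroblast mean (log axis, values of 0 drawn at 0.05%) for 18 members with their highest sorted mean in Fibroblast, at 3 RPKM or more. Shaded bands and dashed lines give the range and median of the 12 fibroblast markers in each library. Adamts2, Adamts15 and Adamts5 lie among the markers or below them, while Adam9, Adam19, Adam22, Adam33, Adamts7, Adamts10, Adamtsl4 and Adamtsl5 lie above all markers in both libraries.

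Inhibitors and partners of these enzymes were described from a list of 21 genes, of which 16 were tested. Between TAM and Fibroblast 5 were called higher and 10 lower, where 17.4 and 17.3% of all genes were, with a median log2 difference of −1.63 against 0.13 over all genes. Between TAM and LLC 3 were higher and 1 lower, where 15.4 and 27.5% of all genes were, so the share called higher was near that of all genes. In Fibroblast against LLC 9 were higher and 3 lower, where 13.0 and 25.7% of all genes were. Timp3, the tissue inhibitor that acts on most ADAM and ADAMTS enzymes, averaged 2.44 RPKM in TAM, 126 in Fibroblast and 1.76 in LLC. The log2 difference was −5.31 between TAM and Fibroblast (SE 0.65, adjusted p = 0.000516) and 5.55 between Fibroblast and LLC (SE 0.65, adjusted p = 0.000819). Reck, a membrane-anchored protease inhibitor, averaged 0.343 RPKM in TAM, 37.6 in Fibroblast and 2.11 in LLC, with log2 differences of −4.87 and 3.63 for the same comparisons (adjusted p = 0.000182 and 0.00104). Timp1 averaged 31.4 RPKM in TAM, 421 in Fibroblast and 52.5 in LLC, and Timp2 averaged 181 RPKM in TAM, 584 in Fibroblast and 184 in LLC. Both were called lower in TAM than in Fibroblast and higher in Fibroblast than in LLC. Pcsk6, a proprotein convertase of the kind that removes the inhibitory prodomain, averaged 0.861 RPKM in TAM, 49.2 in Fibroblast and 1.33 in LLC. By limma it was lower in TAM than in Fibroblast (log2 difference −4.93, adjusted p = 0.00033) and higher in Fibroblast than in LLC (4.47, adjusted p = 0.000985).

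Partners of Adam17 and Adam10 differed between the populations. Rhbdf1 and Rhbdf2 encode the 2 iRhom proteins that carry Adam17 to the cell surface. Rhbdf2, the form known from immune cells, averaged 35.4 RPKM in TAM, 2.78 in Fibroblast and 12.9 in LLC, with a log2 difference of 3.27 between TAM and Fibroblast (SE 0.23, adjusted p = 0.000106), 1.39 between TAM and LLC (SE 0.23, adjusted p = 0.00208) and −1.88 between Fibroblast and LLC (adjusted p = 0.000878). Rhbdf1 averaged 3.67 RPKM in TAM, 45.4 in Fibroblast and 59.3 in LLC, with a log2 difference of −3.31 between TAM and Fibroblast (SE 0.26, adjusted p = 0.00012) and −3.68 between TAM and LLC (SE 0.26, adjusted p = 0.000125). Tspan14, a tetraspanin partner of Adam10, averaged 62.8 RPKM in TAM, 10.3 in Fibroblast and 24.2 in LLC, and was higher in TAM than in Fibroblast (2.49, adjusted p = 0.000321) and than in LLC (1.33, adjusted p = 0.00667). Tspan5, another such tetraspanin, averaged 6.36 RPKM in TAM and 20.4 in Fibroblast and was lower in TAM (−1.58, adjusted p = 0.00322), and Tspan17 (12.4 RPKM in TAM and 11.8 in Fibroblast) was not called (adjusted p = 0.925). Furin, another convertase, averaged 80.0 RPKM in TAM, 28.8 in Fibroblast and 39.5 in LLC, and was higher in TAM than in Fibroblast (1.45, adjusted p = 0.00249). Its call against LLC (1.00, adjusted p = 0.0131) was lost without TAM 2, LLC 1 or LLC 2, with adjusted p up to 0.0825. Lrp1, a receptor that takes up ADAMTS enzymes, averaged 129 RPKM in TAM, 229.8 in Fibroblast and 99.0 in LLC. Its call between TAM and Fibroblast (−0.84, adjusted p = 0.0485) was lost in 9 of 18 alternatives.

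Of 36 listed substrates of ADAM10 and ADAM17, 32 were tested. Between TAM and Fibroblast 12 were called higher and 8 lower, where 17.4 and 17.3% of all genes were. Between TAM and LLC 13 were called higher and 12 lower, where 15.4 and 27.5% of all genes were. In Fibroblast against LLC 7 were called higher and 9 lower, where 13.0 and 25.7% of all genes were, so the share called lower was near that of all genes. Their medians were 0.38, 0.68 and −0.04, against 0.13, −0.38 and −0.46 over all genes. Tnf, the inflammatory cytokine released by ADAM17, averaged 30.8 RPKM in TAM, 1.00 in Fibroblast and 0.654 in LLC, with log2 differences of 3.91 between TAM and Fibroblast (SE 0.50, adjusted p = 0.000614) and 4.30 between TAM and LLC (SE 0.50, adjusted p = 0.000448). Its receptor Tnfrsf1b averaged 75.8 RPKM in TAM, 22.1 in Fibroblast and 2.09 in LLC, and was higher in TAM than in LLC (4.79, adjusted p = 0.000187). Its call between TAM and Fibroblast (1.74, adjusted p = 0.015) was lost without any 1 of the 4 libraries compared and at a pseudocount of 0.1, with adjusted p up to 0.113. Trem2 and Cd163, shed receptors of macrophages, averaged 274 and 129.6 RPKM in TAM, against 3.40 and 2.00 in Fibroblast, with log2 differences of 5.91 and 5.46 (adjusted p = 0.00115 and 0.000189).

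Other substrates were lower in TAM than in another sorted population, or higher. Csf1, the membrane-bound or secreted growth factor of macrophages, averaged 7.20 RPKM in TAM, against 145 in Fibroblast, which is a log2 difference of −4.17 (SE 0.28, adjusted p = 0.000104). Its receptor Csf1r averaged 428 RPKM in TAM and 8.23 in LLC (5.97, SE 0.66, adjusted p = 0.000375). The receptor tyrosine kinase Axl averaged 28.7 RPKM in TAM and 281 in Fibroblast (−3.29, adjusted p = 0.000167). Ptk7 and the chemokine Cx3cl1 were lower in TAM than in LLC, with means of 0.499 and 0.677 RPKM in TAM and 23.0 and 13.1 RPKM in LLC. The growth factor Hbegf averaged 2.47 RPKM in TAM, 1.88 in Fibroblast and 9.63 in LLC, and was lower in TAM than in LLC (−1.60, adjusted p = 0.00628), which was lost without LLC 1 (adjusted p = 0.0559), and lower in Fibroblast than in LLC (−1.89, adjusted p = 0.00412). Areg averaged 2.78 RPKM in TAM and 15.0 in LLC, which was not called (−2.07, adjusted p = 0.0537) but was in 4 of 18 alternatives. In TAM, App averaged 333 RPKM, Icam1 51.6, Mertk 32.3 and Met 1.83. Between Fibroblast and LLC, Icam1 (34.0 RPKM in Fibroblast and 1.37 in LLC) and App (234 in Fibroblast and 25.2 in LLC) were called higher, and Met (1.99 in Fibroblast and 18.3 in LLC) lower. Mertk (1.45 RPKM in Fibroblast and 12.2 in LLC) was also called lower, but not without any 1 of the 4 libraries compared, with adjusted p up to 0.098.

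Of 22 listed matrix substrates of ADAMTS enzymes, 15 were tested. Between TAM and Fibroblast 1 was called higher and 13 lower, where 17.4 and 17.3% of all genes were, with a median of −5.57 against 0.13 over all genes. Between TAM and LLC 1 was higher and 8 lower, where 15.4 and 27.5% of all genes were, with a median of −1.79 against −0.38. Between Fibroblast and LLC 10 were higher and 1 lower, where 13.0 and 25.7% of all genes were, with a median of 2.03 against −0.46. The list holds Col1a1, whose promoter drives the GFP used to sort both groups, and other collagens, so its direction between TAM and Fibroblast is not independent of the sort. Col1a1 averaged 70.5 RPKM in TAM, 4757 in Fibroblast and 134 in LLC. Vcan, the versican core protein cut by the hyalectanases, was highest in LLC, with a mean of 16.1 RPKM in TAM, 61.6 in Fibroblast and 141 in LLC. It was lower in TAM than in Fibroblast (log2 difference −1.94, SE 0.35, adjusted p = 0.00343) and than in LLC (−3.12, SE 0.35, adjusted p = 0.000391), and its call between Fibroblast and LLC (−1.18, adjusted p = 0.0317) was lost in 9 of 18 alternatives. Dcn and Col3a1 averaged 42.1 and 183 RPKM in TAM and 783 and 2824 RPKM in LLC, with log2 differences of −4.48 and −4.29 (adjusted p = 0.00109 and 0.0029). The single list member called higher in TAM was Thbs1, a matrix glycoprotein, with means of 236 RPKM in TAM, 68.6 in Fibroblast and 8.44 in LLC. Against LLC the difference was 4.70 (SE 0.41, adjusted p = 0.000177). Against Fibroblast it was 1.83 (adjusted p = 0.00995), and this call was lost without TAM 1, TAM 2 or Fibroblast 2 and after quantile normalization, with adjusted p up to 0.0926.

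Each sorted population was also set against whole tumors. Between TAM and Total tumor 4 of the 28 members were called higher and 8 lower, where 11.3 and 23.9% of all genes were. Adam8 was higher in TAM (log2 difference 2.53, SE 0.40, adjusted p = 0.00333). The other 3 calls were fragile. Adam15 (1.67, adjusted p = 0.0218) stood at 0.92 without Total tumor 1 and was lost in 5 of 18 alternatives. Adam9 (1.30, adjusted p = 0.0401) was lost in 11 and stood at 0.72 without Total tumor 2, and Adamtsl4 (0.87, adjusted p = 0.033) was lost in 8. Among the lower members the largest differences were those of Adamts1 (−3.5, SE 0.40, adjusted p = 0.00109), Adamts14 (−3.26, SE 0.34, adjusted p = 0.000844), Adamtsl3 (−3.23, SE 0.43, adjusted p = 0.00188) and Adamts4 (−1.87, SE 0.35, adjusted p = 0.00649). Adamts7 was lower by −1.80 (SE 0.27, adjusted p = 0.00261). The rest were Adamts9, whose call was lost without TAM 1 (adjusted p = 0.0642), and Adamtsl5 and Adamts10, each lost in 13 of 18 alternatives.

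Between Fibroblast and Total tumor 17 members were called higher and 2 lower, where 12.1 and 30.0% of all genes were. The largest were Adamts15 (log2 difference 4.94, SE 0.56, adjusted p = 0.000911), Adamts2 (4.65, SE 0.60, adjusted p = 0.00132), Adamtsl1 (4.41, SE 0.43, adjusted p = 0.000603), Adamts5 (4.39, SE 0.37, adjusted p = 0.000529) and Adam23 (4.02, SE 0.41, adjusted p = 0.000673). Adam8 was lower in Fibroblast (−3.42, SE 0.40, adjusted p = 0.000981). Adamtsl3 was lower as well (−2.00, adjusted p = 0.00916), which was lost without Fibroblast 1 (adjusted p = 0.0713) and after upper-quartile rescaling (0.0529). Adamts1 was higher by 1.65 (adjusted p = 0.014). Without Total tumor 2 it was 1.06, and the call was lost without Fibroblast 1 (adjusted p = 0.107). Adam9, at 1.34 (adjusted p = 0.0309), stood at 0.76 without Total tumor 2, and its call was lost in 7 of 18 alternatives, with adjusted p = 0.0812 without Total tumor 2 and 0.0538 with the replicate block.

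Between LLC and Total tumor no member was called higher and 1 was called lower, where 0.0526 and 2.30% of all genes were. This was Adam8 (log2 difference −2.30, SE 0.40, adjusted p = 0.0349), and the call was lost in 8 of 18 alternatives, with adjusted p between 0.0183 and 0.291. The difference between the 2 libraries of each group was also set against transcript length. Over the 27 tested members with a known length, the difference of Total tumor 2 minus Total tumor 1 on the log2(RPKM + 1) scale had a Pearson correlation of −0.39 with log2 length and a Spearman correlation of −0.40 with length, across genes of 1 pair of libraries and given as a description. The correlations for replicate 2 minus replicate 1 over the same members had the opposite sign in the sorted groups, at 0.39 and 0.36 in TAM, 0.24 and 0.16 in Fibroblast, and 0.34 and 0.42 in LLC. For Total tumor, over all 13098 tested genes with a length these were −0.34 and −0.54. Adam15, with 2975 bases, stood at 99.5 RPKM in Total tumor 2 and 34.7 in Total tumor 1, while Adamts12, with 8579 bases, was at 0 in Total tumor 2 and at 1.51 RPKM in Total tumor 1. Other members went the other way. Adam17, whose kept non-coding transcript has 2540 bases, stood at 26.1 RPKM in Total tumor 2 and 37.3 in Total tumor 1. The lengths of its coding transcripts were not used. Adamts7, with 5098 bases, stood at 3.62 and 2.68 RPKM. The part of transcript length in the members' Total tumor values was not tested.

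**Figure D5:**
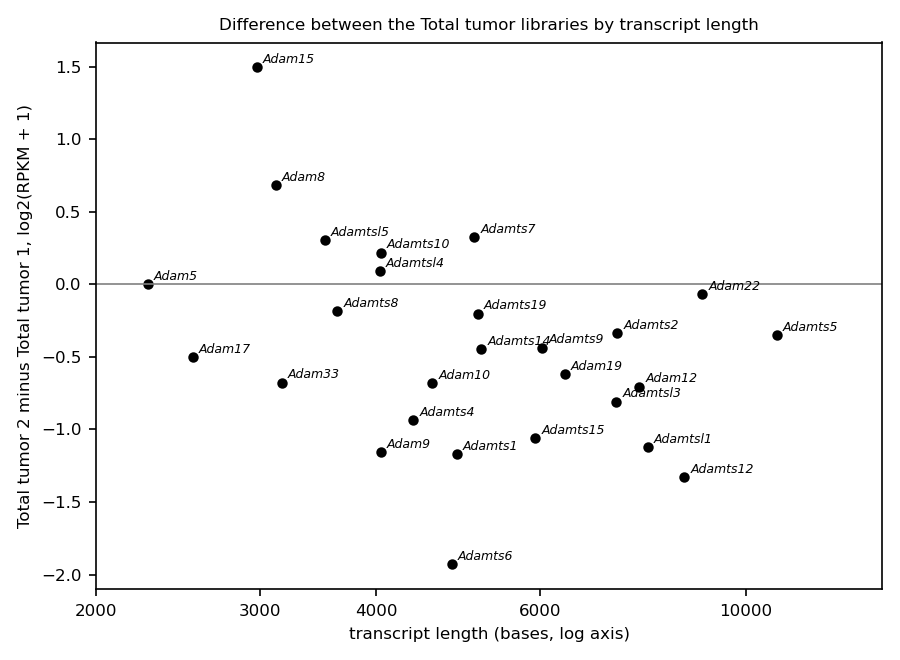
Difference of Total tumor 2 minus Total tumor 1 on the log2(RPKM + 1) scale against transcript length in bases for the 27 tested members with a known length. The long Adamts12 lies below 0, and Adam15 and Adam8, which are short, lie above it. Other members go the other way: the short Adam33 lies below 0, and the longer Adamts7 lies above it. Adam17, placed by the length of its non-coding transcript, also lies below 0.

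The remaining 28 genes did not reach 1 RPKM in any library, and their highest value was 0.927 RPKM. Among the 22 ADAM genes were Adam1a, Adam3, Adam4, Adam6b, Adam11, Adam18, Adam21, Adam30 and Adam32, with a value above 0 in at least 1 library. Adam1b, Adam2, Adam6a, Adam7, Adam20, Adam24, Adam25, Adam26a, Adam26b, Adam28, Adam29, Adam34 and Adam39, 13 genes, were listed at 0 in all 8 libraries. Several of these, such as Adam2 and Adam3, are known from sperm and the testis. The ADAMTS and ADAMTSL genes below 1 RPKM were Adamts3, Adamts13 (the protease of von Willebrand factor), Adamts17, Adamts18, Adamts20 and Adamtsl2.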

How the data were processed

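RNA was measured in 8 libraries, in 4 groups of 2 taken from the labels. Per the labels' protocols, 200 ng of total RNA was copied with oligo-dT priming, built into libraries with the NEBNext kit and read at 50 bases on a HiSeq1500. The deposited values are RPKM per RefSeq transcript, computed by the authors. Per the submitters' processing notes, STAR, HOMER and the build mm9 were used. The sources used here do not give the annotation, the strand setting, the filters or the read total behind the RPKM. Coordinates are left out, since the reference annotation is of another build. Priming with oligo-dT can place more reads toward the 3′ end of a transcript, which RPKM does not correct.

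The table held 31645 transcripts, of which 3 had no gene name and were left out. For each symbol the transcript with the highest mean RPKM over the 8 libraries was kept, which gave 23952 symbols. The 57 members had 80 transcripts, and 14 members had more than 1. Depth was estimated from the lowest values, of which 58.6 to 63.0% fell within 0.05 of a whole number of reads, too few to recover counts, so no count test was run. RPKM sums ranged from 462102 to 664078 per library, and the precision rests on the spread between 2 libraries.

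All 6 pairs of groups were compared in 1 fit with limma 3.58.1 in R 4.3.3 on log2(RPKM + 1), over 13311 genes with at least 1 RPKM in at least 2 libraries, with no rescaling. Residual and prior degrees of freedom were 4 and 3.62. P-values were adjusted by Benjamini-Hochberg over all genes tested, and the threshold was 0.05. A log2 difference on this scale understates the change of low genes. The procedure was tested on simulated data first.

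The members, gene lists, tests and alternatives were chosen with earlier results of these data known. Full statistics go to called members by size of difference, up to 8 per direction between sorted populations and 5 against Total tumor, with a mean of at least 3 RPKM in the higher group, and to members picked by name. Of the lists of regulators and substrates, up to 2 called genes per direction with a mean of at least 5 RPKM are named, besides a few picked by name. Tests of members outside this rule are given for completeness.

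As alternatives the fit was repeated with pseudocounts of 0.1 and 5, without a filter, with a filter at 5 RPKM, upper-quartile rescaling, quantile normalization, the replicate number as a block, a sum over transcripts, a lowess correction for transcript length, a fit of only the 2 groups compared, and a fit without each of the 8 libraries. Lengths and zinc-site codons come from GENCODE M21 on GRCm38, matched by RefSeq identifier or symbol. Lengths matched for 97.4% of transcripts.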

Additional observations from a re-analysis of the deposited data

How the results depend on the processing

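Of 83 called differences of members, 61 kept their call in every fit that held the gene, and 22 lost it in some. None changed direction. These fits were the 10 alternatives and the 8 fits without a library. Adam5, Adam22, Adam23, Adamts6, Adamts7, Adamts8, Adamts9 and Adamts19 were present in only 17 of these 18 fits, so their calls were not tested in all of them. Differences of members that were not called were followed only where picked by name. Of the 19 picked, 9 were called in some of these fits, so this is no rate for all uncalled differences. Of 52 called differences of list genes picked by name, 43 kept their call and 9 lost it in some. With a filter at 5 RPKM, 5 members were lower in TAM than in LLC, in place of 8. Between Fibroblast and LLC 1 member was lower in place of 2 after upper-quartile rescaling, with the replicate block and after the length correction. Between TAM and Total tumor 2 members were higher in place of 4 with the block, and 1 in a fit of only these groups. Between Fibroblast and Total tumor 1 was lower in place of 2 after upper-quartile rescaling. Between LLC and Total tumor the 1 lower member became 0 without a filter and in a fit of only these groups, and 2 after the length correction. The cause of these changes was not tested, apart from the stricter filter, which leaves fewer genes.

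Leaving out 1 library gave 1 to 3 higher and 19 to 22 lower members between TAM and Fibroblast, 3 to 4 and 5 to 9 between TAM and LLC, and 12 to 16 and 1 to 4 between Fibroblast and LLC. Against Total tumor it gave 1 to 4 and 5 to 8 for TAM, 13 to 17 and 1 to 4 for Fibroblast, and 0 to 3 and 0 to 3 for LLC. Between LLC and Total tumor the highest counts came without Total tumor 1, where 928 of all genes were higher and 1492 lower, and a fit of only these groups called 0 in either direction.

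Among the uncalled differences picked by name, direction changed as follows. Adam9 between TAM and Fibroblast was between −0.30 and 0.21 over the fits without a library, and above 0 without TAM 1 or without Fibroblast 2 (0.13). Between TAM and LLC, Adam10 was 0.071 after upper-quartile rescaling and 0.41 after the length correction, and lay between −0.47 and 0.21 without a library. Adam17 was 0.13 and 0.24 under the same settings, and lay between −0.22 and 0.063. Adam19 was 0.22 after quantile normalization and 0.45 after the length correction, and lay between −0.75 and 0.37. Between Fibroblast and LLC, Adam10 was 0.016 after upper-quartile rescaling and 0.020 after the length correction, and Adamts1 lay between −0.10 and 0.53 without a library. Adamts14 was 0.39 after upper-quartile rescaling, 0.39 after quantile normalization and 0.40 after the length correction.

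The labels do not say that equal replicate numbers mark shared animals or days, and the deviations of same-numbered libraries correlated at 0.16, 0.27 and 0.21 between sorted groups but at −0.36, −0.18 and −0.23 between these and Total tumor. Replicate 1 was the deeper library in each group, at 8.54 to 10.37 M reads, against 4.28 to 4.71 M in replicate 2. Since not every pair correlated, the numbers were not taken to pair the samples. With the replicate block 8 of the 83 calls were lost and none reversed. The rescalings moved the median of all genes between Fibroblast and LLC, which was −0.46 as deposited, to −0.05 (upper quartile) and −0.19 (quantile), and that between TAM and LLC, −0.38 as deposited, to −0.21 and −0.15. At the lower depths 1 read on 4 kb is worth up to 0.0584 RPKM, so levels of a few hundredths of an RPKM rest on single reads.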
